A study of Rattus norvegicus with 24 samples.

Results

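The genes described are 9 cell cycle and proliferation genes, chosen by Ensembl gene identifier out of 30560 genes counted. They are Mki67 (ENSRNOG00000028137), Top2a (ENSRNOG00000053047), Cdk1 (ENSRNOG00000000632), Ccnb1 (ENSRNOG00000058539), Ccna2 (ENSRNOG00000015423), Pcna (ENSRNOG00000021264), Ccnd1 (ENSRNOG00000020918), Cdkn1a (ENSRNOG00000000521) and Myc (ENSRNOG00000004500). RNA-seq had been made from lung and liver of wild-type Sprague Dawley rat pups at postnatal day 6. Injections under the skin had been given once a day for 5 days, starting on postnatal day 1, and the organs were collected 24 h after the last one. One set of pups received desisobutyryl ciclesonide at 1.25 mg/kg, the active metabolite of the inhaled glucocorticoid ciclesonide. Another received dexamethasone at 0.1 mg/kg, a long-acting synthetic glucocorticoid, and the control pups received the 2.5% ethanol vehicle. Each tissue and treatment had 4 libraries, 24 in all, with 15397992 to 27881158 gene counts per library. The doses of the drugs differed, so every value of one drug against the other is at unmatched doses.

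A dividing cell passes through a gap phase (G1), DNA synthesis (S), a second gap (G2) and mitosis (M). Cyclins that appear and disappear in turn activate cyclin-dependent kinases and so drive these steps, and inhibitors such as p21 hold the kinases in check. Cells in S, G2 and M carry high levels of transcripts such as those of Top2a, Cdk1 and the mitotic cyclins, while resting cells keep them low. The lung and the liver of a newborn rat are both growing organs, and the liver at that age still holds blood-forming cells.

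The S, G2 and M phase genes Mki67, Top2a, Cdk1, Ccnb1 and Ccna2 were lower with both drugs in lung. In liver a fall of these genes was called with dexamethasone and not with desisobutyryl ciclesonide. In lung their log2 changes ran from -2.00 to -1.86 with desisobutyryl ciclesonide and from -5.10 to -3.65 with dexamethasone. Cdkn1a, which encodes the kinase inhibitor p21, was higher with dexamethasone in both tissues and with desisobutyryl ciclesonide in lung. That lung call with desisobutyryl ciclesonide was lost in 5 of 8 fits that left out 1 library. In liver the dexamethasone libraries overlapped with vehicle for Cdkn1a, while the desisobutyryl ciclesonide libraries lay above vehicle without a call. Myc, a growth-promoting transcription factor, was higher with dexamethasone in both tissues and with desisobutyryl ciclesonide in liver. The desisobutyryl ciclesonide libraries form a separate series, described below, so drug and library series cannot be told apart in their comparisons.

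The promoters of 6 of the 9 genes were matched by symbol in RefSeq (build GRCr8), namely those of Mki67, Top2a, Cdk1, Ccnb1, Pcna and Cdkn1a. Promoters are shown for 3 genes that fell together and for Cdkn1a, which moved the other way. Those of Mki67 and Pcna, which also fell with dexamethasone, are not shown. The cell cycle homology region (CHR, searched as TTTGAA or TTTAAA) and the CCAAT box (searched as CCAAT) are known elements of promoters active in G2 and M. Both strands of the 250 bases before the annotated start were searched. The stretches printed run 5′ to 3′ along the strand of the gene and were cut short of any annotated transcript. Top2a lies at chr10:84473094-84473343 on the minus strand, Cdk1 at chr20:19265043-19265251 on the plus strand, Ccnb1 at chr2:33655226-33655475 on the minus strand and Cdkn1a at chr20:7150682-7150819 on the plus strand. Capitals mark CHR and CCAAT matches on either strand in Top2a, Cdk1 and Ccnb1, and a half-site of the p53 consensus in Cdkn1a.
Top2a: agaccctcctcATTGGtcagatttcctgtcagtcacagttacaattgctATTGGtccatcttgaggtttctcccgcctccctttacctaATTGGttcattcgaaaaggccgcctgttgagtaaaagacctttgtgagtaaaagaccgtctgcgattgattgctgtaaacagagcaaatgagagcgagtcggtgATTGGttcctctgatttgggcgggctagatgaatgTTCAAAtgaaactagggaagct
Cdk1: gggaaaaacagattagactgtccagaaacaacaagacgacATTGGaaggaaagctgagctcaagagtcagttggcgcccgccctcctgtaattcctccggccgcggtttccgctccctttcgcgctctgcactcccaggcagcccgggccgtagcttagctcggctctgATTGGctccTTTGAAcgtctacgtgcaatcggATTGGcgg
Ccnb1: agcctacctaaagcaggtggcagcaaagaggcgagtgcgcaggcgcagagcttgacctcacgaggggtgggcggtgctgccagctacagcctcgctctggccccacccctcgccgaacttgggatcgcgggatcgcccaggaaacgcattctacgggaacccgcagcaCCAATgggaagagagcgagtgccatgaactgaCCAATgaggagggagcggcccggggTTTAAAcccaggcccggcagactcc
Cdkn1a: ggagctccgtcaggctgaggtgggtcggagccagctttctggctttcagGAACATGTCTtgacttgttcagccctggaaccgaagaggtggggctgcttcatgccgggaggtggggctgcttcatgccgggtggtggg
Top2a had 1 CHR, with its first base 22 bases before the start, and 4 CCAAT boxes. Ccnb1 had 1 CHR, 25 bases before the start, and 2 CCAAT boxes. Cdk1 had 2 CHR, 72 and 16 bases before the start, of which the stretch printed holds 1, and 3 CCAAT boxes. Mki67 had 2 CHR and 4 CCAAT boxes. Pcna had no CHR and 1 CCAAT box, and Cdkn1a had neither but had 1 p53 half-site, 201 bases before the start. Of all 33469 rat promoters in the table, 25.4% held a CHR, 34.02% a CCAAT box and 6.64% a p53 half-site within the same window. The palindromic glucocorticoid response element was not found in these 6 windows and was found in 0.012% of all promoters. These are letter matches in a short window and say nothing of binding.

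All 9 genes passed the low-count filter in both tissues. In lung with dexamethasone, 7 of the 9 fell and 2 rose by edgeR's quasi-likelihood test at an adjusted p of 0.05, and the groups did not overlap for any of the 9. Of all 16108 genes tested there, 55.6% were called (28.7% lower and 26.9% higher), and 50.3% had groups that did not overlap. The median log2 change was -3.65 over the 9 genes and -0.01 over all genes. A fall of at least 8-fold was called for 5 of the 9 genes and for 2.01% of all genes. The desisobutyryl ciclesonide libraries stood apart technically: 0.930% to 1.25% of their lung entries were unaligned reads, against 1.93% to 3.50% with dexamethasone and 2.32% to 3.01% with vehicle. Their deposited files are also numbered in a separate series, so drug and library series cannot be told apart in any comparison that involves desisobutyryl ciclesonide. In whole tissue, fewer cells of a type and less RNA per cell cannot be told apart.

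Mki67 encodes the proliferation antigen Ki-67, which coats chromosomes in mitosis. Its level in lung replicates 1 to 4 was 58.4, 59.1, 43.2 and 27.5 CPM (counts scaled to a common library size) with desisobutyryl ciclesonide, 18.9, 17.0, 9.51 and 9.38 CPM with dexamethasone, and 168, 161, 189 and 165 CPM with vehicle. The 3 treatments formed 3 separate ranges, lowest with dexamethasone. The log2 change against vehicle was -1.86 ± 0.27 (SE; adjusted p = 0.000688) with desisobutyryl ciclesonide and -3.65 ± 0.29 (adjusted p = 8.01e-07) with dexamethasone.

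Top2a encodes DNA topoisomerase II alpha, which untangles replicated chromosomes. In lung it stood at 70.0, 65.6, 47.5 and 35.9 CPM with desisobutyryl ciclesonide, at 5.03, 3.69, 8.59 and 6.87 CPM with dexamethasone, and at 199.5, 189, 247 and 200.6 CPM with vehicle. Every drug library lay below every vehicle library, and the dexamethasone libraries lay lowest. The log2 change of Top2a was -1.93 ± 0.24 with desisobutyryl ciclesonide (adjusted p = 0.000330) and -5.10 ± 0.29 with dexamethasone, a 34.3-fold fall (adjusted p = 5.95e-08). The dexamethasone change was the deepest of the 9 genes and ranked 42nd from the lowest of 16108.

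Cdk1, the kinase that starts mitosis, averaged 24.7 ± 8.33 CPM with desisobutyryl ciclesonide, 4.57 ± 0.736 CPM with dexamethasone and 96.2 ± 4.81 CPM with vehicle in lung (SD, n = 4 each). Its log2 change was -1.96 ± 0.20 (SE; adjusted p = 7.04e-05) with desisobutyryl ciclesonide and -4.39 ± 0.22 (adjusted p = 2.20e-08) with dexamethasone. Ccnb1 encodes cyclin B1, the partner of Cdk1 at mitotic entry, and Ccna2 encodes cyclin A2, which acts from S phase into G2. Ccnb1 ranged from 12.005 to 16.4 CPM with desisobutyryl ciclesonide, from 1.93 to 4.69 CPM with dexamethasone and from 43.7 to 57.9 CPM with vehicle. Ccna2 ranged from 16.8 to 31.2 CPM with desisobutyryl ciclesonide, from 1.99 to 5.11 CPM with dexamethasone and from 87.5 to 104 CPM with vehicle. As for Mki67 and Top2a, no range touched another. The log2 changes of Ccnb1 were -1.91 ± 0.20 and -3.80 ± 0.22 with desisobutyryl ciclesonide and with dexamethasone (adjusted p = 8.29e-05 and 4.07e-08). Those of Ccna2 were -2.00 ± 0.24 and -4.72 ± 0.28 in the same order (adjusted p = 0.000208 and 6.80e-08).

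**Figure D1:**
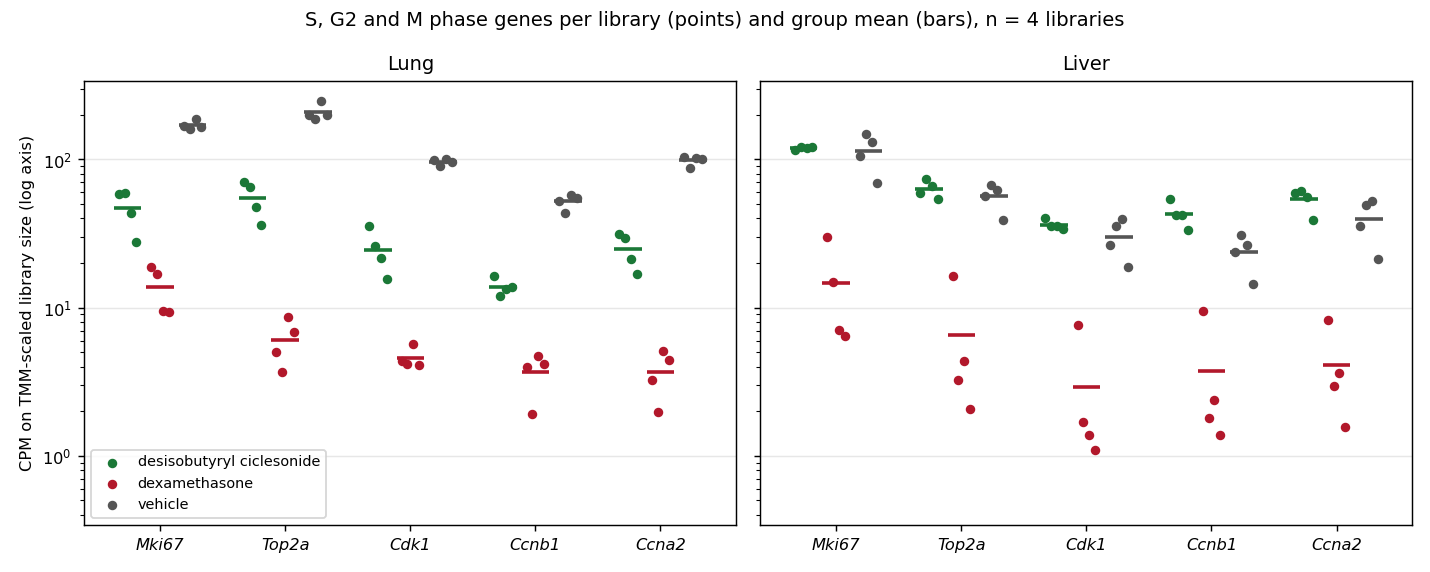
CPM (log axis) of Mki67, Top2a, Cdk1, Ccnb1 and Ccna2 in each library by tissue and treatment, with points for libraries and bars for group means. CPM were scaled within each tissue, so levels do not compare lung with liver. In lung the 3 treatments are separate for all 5 genes, while in liver the dexamethasone libraries alone lie below the others, with dexamethasone replicate 1 on top of its group.

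The 5 genes summed to 165 ± 45.8 CPM with desisobutyryl ciclesonide, 31.7 ± 3.39 CPM with dexamethasone and 627 ± 52.4 CPM with vehicle in lung (SD, n = 4 each). Single genes varied more with dexamethasone than their sum, with an SD of 16.1% (Cdk1) to 37.2% (Ccna2) of the mean. There Mki67 was higher in replicates 1 and 2 than in 3 and 4, while Top2a was lower. Desisobutyryl ciclesonide replicate 1 was the highest and replicate 4 the lowest of its lung group for 6 of the 9 genes each. Pcna, the sliding clamp of DNA polymerase that serves both replication and DNA repair, changed less than those 5 genes. It ranged from 70.7 to 108 CPM with desisobutyryl ciclesonide, from 45.7 to 56.6 CPM with dexamethasone and from 120.0 to 142 CPM with vehicle. Its log2 change was -0.54 ± 0.12 (adjusted p = 0.00746) with desisobutyryl ciclesonide and -1.33 ± 0.12 (adjusted p = 1.82e-06) with dexamethasone.

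Among the G1 genes the drugs differed in lung. Ccnd1 encodes cyclin D1, which links growth signals to the start of the cycle. Its levels in lung were 148, 201.5, 119.9 and 88.2 CPM with desisobutyryl ciclesonide, 40.6, 20.5, 27.9 and 24.4 CPM with dexamethasone, and 158, 140.1, 110.1 and 113 CPM with vehicle. The desisobutyryl ciclesonide and vehicle libraries overlapped, while the dexamethasone libraries lay below both. Ccnd1 fell by 2.20 ± 0.26 on the log2 scale with dexamethasone (adjusted p = 2.15e-05). With desisobutyryl ciclesonide its log2 change was 0.10, with a 95% interval from -0.45 to 0.64 (adjusted p = 0.815).

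Cdkn1a was at 43.4, 40.1, 58.1 and 58.9 CPM with desisobutyryl ciclesonide, at 106, 178, 72.9 and 120.3 CPM with dexamethasone, and at 33.9, 30.2, 24.4 and 29.7 CPM with vehicle in lung. Again the 3 ranges were separate, now with dexamethasone highest. The log2 change was 0.76 ± 0.23 (adjusted p = 0.0305) with desisobutyryl ciclesonide and 2.01 ± 0.23 (adjusted p = 1.50e-05) with dexamethasone. The call with desisobutyryl ciclesonide was lost in 5 of the 8 fits that left out 1 library, with adjusted p up to 0.0865. Myc was at 35.1, 30.8, 26.6 and 31.4 CPM with desisobutyryl ciclesonide, at 67.5, 106, 47.1 and 53.5 CPM with dexamethasone, and at 33.6, 33.7, 27.3 and 30.2 CPM with vehicle. Dexamethasone libraries were all above the rest, and replicate 2 was the highest for Myc as for Cdkn1a. Myc rose by 1.14 ± 0.21 on the log2 scale with dexamethasone (adjusted p = 0.000491) and differed by -0.01 with desisobutyryl ciclesonide (95% interval -0.46 to 0.44; adjusted p = 0.980).

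**Figure D2:**
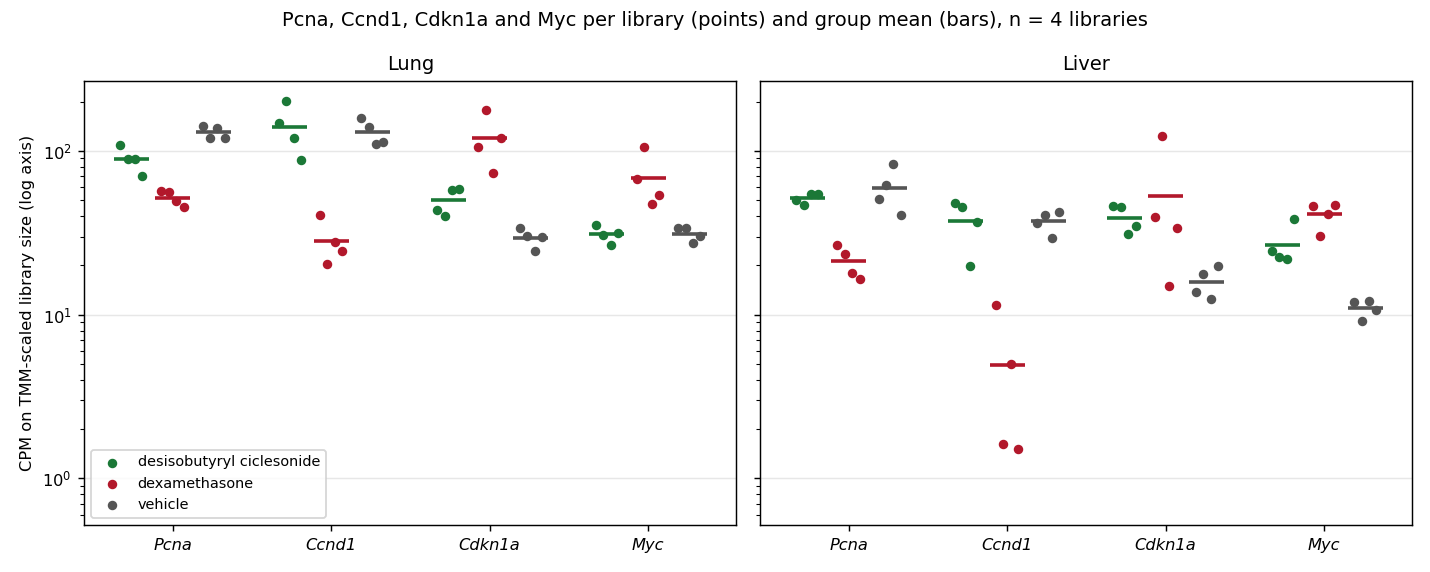
CPM (log axis) of Pcna, Ccnd1, Cdkn1a and Myc in each library by tissue and treatment, with points for libraries and bars for group means. CPM were scaled within each tissue, so levels do not compare lung with liver. Cdkn1a and Myc are highest with dexamethasone in lung, where Ccnd1 overlaps between desisobutyryl ciclesonide and vehicle.

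With desisobutyryl ciclesonide in lung, 6 of the 9 genes fell, 1 rose and 2 were not called, and 7 had groups that did not overlap. Of all genes tested there, 24.1% were called (12.3% lower and 11.8% higher), and 33.2% did not overlap. The median log2 change was -1.86 over the 9 genes and -0.01 over all genes. Set against dexamethasone at its lower dose, desisobutyryl ciclesonide left 7 of the 9 genes higher and 2 lower, with no overlap between the groups for any of the 9. In that comparison 49.5% of all genes were called, 25.01% as higher and 24.4% as lower, and 43.9% did not overlap. The log2 difference was widest for Top2a at 3.17 ± 0.27 (adjusted p = 3.81e-06) and narrowest for Pcna at 0.79 ± 0.12 (adjusted p = 0.000204). Between them lay Ccna2 at 2.73 ± 0.26, Cdk1 at 2.43 ± 0.21, Ccnb1 at 1.90 ± 0.21 and Mki67 at 1.79 ± 0.27, with adjusted p of at most 0.000207. Ccnd1 differed by 2.30 ± 0.26 (adjusted p = 3.23e-05), Cdkn1a by -1.25 ± 0.23 (adjusted p = 0.000722) and Myc by -1.15 ± 0.21 (adjusted p = 0.000672). The comparisons with vehicle share the vehicle libraries, and those involving one drug share its libraries.

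In liver, dexamethasone lowered 7 of the 9 genes and raised 2, and 8 had groups that did not overlap. Of 13734 genes tested in liver, 47.5% were called, 24.9% as lower and 22.5% as higher, and 42.5% did not overlap. The median log2 change was -2.94 over the 9 genes and -0.02 over all genes. A called fall of at least 8-fold was found for Top2a, Cdk1 and Ccna2, 3 of the 9, and for 2.46% of all genes. This count depended on single libraries: it was 6 without dexamethasone replicate 1, 2 without dexamethasone replicate 3 or 4, and 3 or 4 without any other single library.

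Mki67 in liver replicates 1 to 4 was at 116, 122, 119 and 120.5 CPM with desisobutyryl ciclesonide, at 30.2, 14.8, 7.02 and 6.42 CPM with dexamethasone, and at 105, 149, 132 and 69.3 CPM with vehicle. The desisobutyryl ciclesonide libraries lay inside the vehicle range, and the dexamethasone libraries lay below it. Mki67 fell by 2.98 ± 0.45 on the log2 scale with dexamethasone (adjusted p = 0.000236), and its change with desisobutyryl ciclesonide was 0.07 (95% interval -0.83 to 0.96; adjusted p = 0.951). Top2a was at 59.7, 74.3, 65.7 and 54.2 CPM with desisobutyryl ciclesonide, at 16.3, 3.22, 4.35 and 2.08 CPM with dexamethasone, and at 57.1, 67.2, 62.7 and 39.3 CPM with vehicle. Its log2 change was -3.15 ± 0.53 with dexamethasone (adjusted p = 0.000592), and its change with desisobutyryl ciclesonide was 0.17 (95% interval -0.87 to 1.20; adjusted p = 0.882). For both genes dexamethasone replicate 1 was the highest of its group, and it was so for 7 of the 9 genes, while replicate 4 was the lowest for 7. Without dexamethasone replicate 1 the dexamethasone change became -4.12 for Top2a and -3.61 for Mki67, both still called.

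Cdk1 in liver ranged from 33.9 to 40.0 CPM with desisobutyryl ciclesonide, from 1.10 to 7.59 CPM with dexamethasone and from 18.9 to 39.6 CPM with vehicle. Its log2 change with dexamethasone was -3.42 ± 0.52 (adjusted p = 0.000265), and -4.45 without dexamethasone replicate 1. With desisobutyryl ciclesonide it was 0.27 (95% interval -0.71 to 1.24; adjusted p = 0.782). Ccnb1 was at 53.9, 42.3, 42.1 and 33.5 CPM with desisobutyryl ciclesonide, at 9.43, 1.81, 2.40 and 1.39 CPM with dexamethasone, and at 23.7, 30.8, 26.5 and 14.3 CPM with vehicle. All 4 desisobutyryl ciclesonide libraries were above all 4 vehicle libraries for Ccnb1, and all 4 dexamethasone libraries were below them. The log2 change with dexamethasone was -2.71 ± 0.51 (adjusted p = 0.00119), and -3.65 without dexamethasone replicate 1. The difference with desisobutyryl ciclesonide, 0.85 (95% interval -0.15 to 1.85), did not pass the test (adjusted p = 0.312), but did when the 8 libraries of these groups were fitted alone (adjusted p = 0.0440). Ccna2 averaged 54.0 ± 10.1 CPM with desisobutyryl ciclesonide, 4.09 ± 2.90 CPM with dexamethasone and 39.6 ± 14.3 CPM with vehicle (SD, n = 4 each). It fell by 3.30 ± 0.44 with dexamethasone (adjusted p = 9.78e-05), and with desisobutyryl ciclesonide it differed by 0.45 (95% interval -0.39 to 1.28; adjusted p = 0.548).

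The 5 S, G2 and M phase genes summed to 316 ± 24.0 CPM with desisobutyryl ciclesonide, 31.9 ± 27.05 CPM with dexamethasone and 264 ± 76.3 CPM with vehicle in liver (SD, n = 4 each). The sum ranged from 12.5 to 71.8 CPM among dexamethasone libraries. It was scaled within liver, and the lung sum within lung, so the sums do not compare the tissues. Pcna averaged 51.7 ± 3.84 CPM with desisobutyryl ciclesonide, 21.2 ± 4.78 CPM with dexamethasone and 59.3 ± 18.4 CPM with vehicle. It fell by 1.49 ± 0.20 on the log2 scale with dexamethasone (adjusted p = 3.99e-05), and with desisobutyryl ciclesonide it differed by -0.20 (95% interval -0.62 to 0.22; adjusted p = 0.608).

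Ccnd1 in liver was at 48.3, 45.3, 19.9 and 37.0 CPM with desisobutyryl ciclesonide, at 11.5, 1.61, 4.97 and 1.50 CPM with dexamethasone, and at 36.1, 40.5, 29.3 and 42.6 CPM with vehicle. All 4 dexamethasone libraries lay below every vehicle library, as did desisobutyryl ciclesonide replicate 3, while the other 3 desisobutyryl ciclesonide libraries overlapped with vehicle or lay above it. The log2 change of Ccnd1 was -2.94 ± 0.56 with dexamethasone (adjusted p = 0.00131), or -3.73 without dexamethasone replicate 1, and its change with desisobutyryl ciclesonide was 0.02 (95% interval -1.08 to 1.11; adjusted p = 0.990). Cdkn1a was at 45.9, 45.4, 30.9 and 34.7 CPM with desisobutyryl ciclesonide, at 39.3, 123, 14.96 and 33.8 CPM with dexamethasone, and at 13.7, 17.8, 12.4 and 19.8 CPM with vehicle. Dexamethasone replicate 2 was far above the other libraries and replicate 3 was inside the vehicle range. They were also the highest and the lowest dexamethasone libraries for Cdkn1a in lung. Cdkn1a rose by 1.72 ± 0.52 with dexamethasone (adjusted p = 0.0185), and by 0.87 without replicate 2 (adjusted p = 0.0254). With desisobutyryl ciclesonide all 4 libraries were above vehicle, and the log2 change of 1.30 ± 0.52 did not pass the test (adjusted p = 0.183). It passed with the 8 libraries of these groups fitted alone (adjusted p = 0.00172).

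Myc in liver was at 24.4, 22.5, 21.8 and 38.6 CPM with desisobutyryl ciclesonide, at 46.0, 30.3, 41.3 and 46.5 CPM with dexamethasone, and at 12.01, 9.14, 12.1 and 10.7 CPM with vehicle. Every drug library lay above every vehicle library. Myc rose by 1.29 ± 0.19 on the log2 scale with desisobutyryl ciclesonide (adjusted p = 0.00172) and by 1.90 ± 0.20 with dexamethasone (adjusted p = 3.46e-06). It was the only one of the 9 genes called with desisobutyryl ciclesonide in liver, where 4.52% of all genes were called, 2.09% as higher and 2.43% as lower. Groups did not overlap for Myc, Ccnb1 and Cdkn1a, 3 of the 9, and for 15.7% of all genes. Unaligned reads were 0.801% to 1.40% of entries in liver desisobutyryl ciclesonide libraries and 2.04% to 3.32% in liver vehicle libraries, and their part in these values was not tested.

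Set against dexamethasone in liver, desisobutyryl ciclesonide left 7 of the 9 genes higher, 1 lower and 1 not called, and 7 had groups that did not overlap. Among all genes 46.3% were called, 23.8% as higher and 22.5% as lower, and 41.6% did not overlap. The log2 difference reached 3.75 ± 0.45 for Ccna2 (adjusted p = 5.00e-05) and 3.69 ± 0.52 for Cdk1 (adjusted p = 0.000186). It was 3.56 ± 0.52 for Ccnb1, 3.32 ± 0.53 for Top2a, 3.04 ± 0.45 for Mki67, 2.96 ± 0.56 for Ccnd1 and 1.29 ± 0.20 for Pcna, with adjusted p of at most 0.00137. Without dexamethasone replicate 1 it was 4.72 for Cdk1, 4.51 for Ccnb1, 4.29 for Top2a, 3.75 for Ccnd1 and 3.68 for Mki67. Myc differed by -0.61 ± 0.19 (adjusted p = 0.0150) although its groups overlapped, and that call was lost under library totals and without 1 library in 2 cases. Cdkn1a differed by -0.43 (95% interval -1.54 to 0.68; adjusted p = 0.514).

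**Figure D3:**
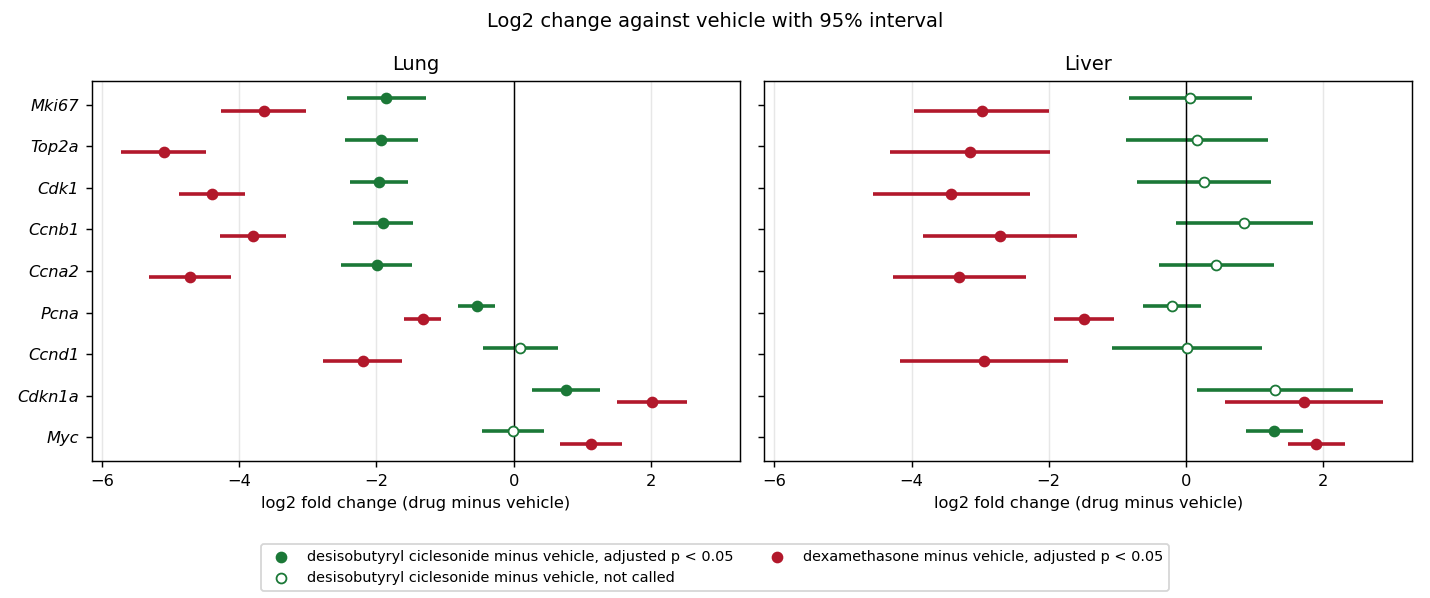
Log2 change against vehicle of each of the 9 genes in lung and liver, with points for the estimate and lines for the 95% interval. Desisobutyryl ciclesonide changes of the 5 S, G2 and M phase genes lie between -2.00 and -1.86 in lung and between 0.07 and 0.85 in liver, while their dexamethasone changes lie between -5.10 and -2.71.

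**Figure D4:**
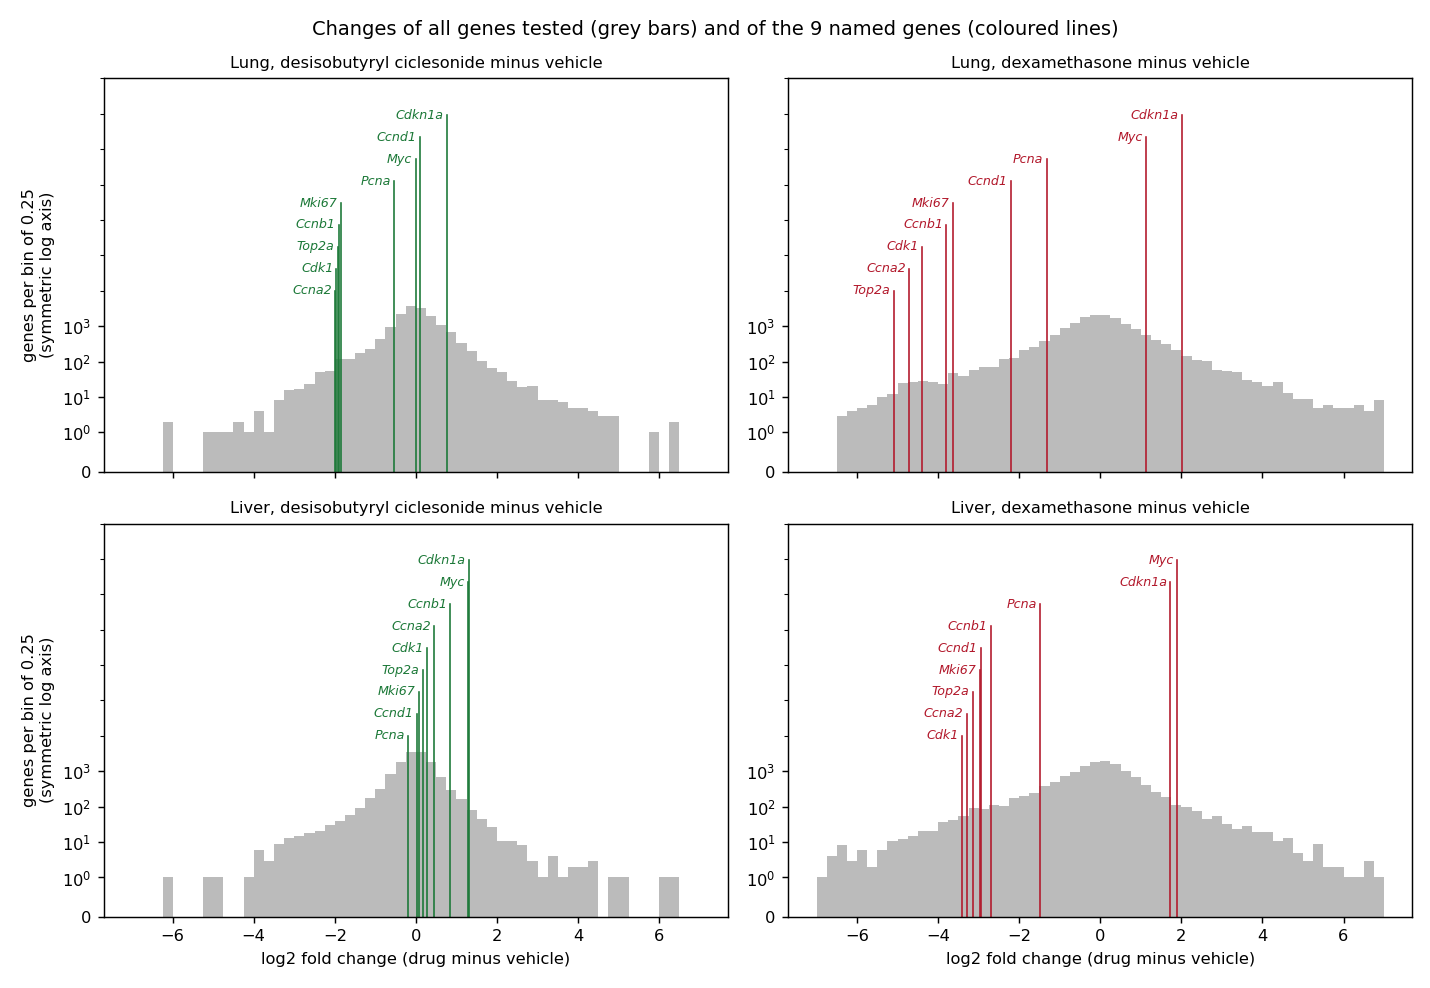
Number of genes (symmetric log axis) by log2 change against vehicle for all genes tested, with a vertical line for each of the 9 genes. The 5 S, G2 and M phase genes lie in the left tail in both dexamethasone panels and in the lung panel of desisobutyryl ciclesonide, while in its liver panel Mki67, Top2a and Cdk1 lie at 0.07 to 0.27, Ccna2 at 0.45 and Ccnb1 to the right at 0.85.

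Levels in vehicle pups were compared between tissues on the scaling of all 24 libraries. Mki67 averaged 109 ± 7.77 CPM in lung and 176 ± 54.5 CPM in liver, and Top2a averaged 133 ± 16.5 CPM in lung and 87.4 ± 19.4 CPM in liver (SD, n = 4 each). None of the 9 genes was called (0 also at an unadjusted p of 0.05), against 70.8% of all genes (39.8% higher and 31.1% lower in lung). The log2 difference of lung less liver ran from -0.70 for Mki67 (95% interval -1.44 to 0.04; adjusted p = 0.0855) to 0.61 for Top2a (95% interval -0.19 to 1.40; adjusted p = 0.163). It was 0.54 for Ccnd1, 0.40 for Cdk1, 0.23 for Myc, 0.04 for Ccna2, -0.15 for both Ccnb1 and Pcna and -0.39 for Cdkn1a. Without liver vehicle replicate 4, Mki67 was called at -0.87 (adjusted p = 0.0414). Groups did not overlap for Top2a and Ccnd1, 2 of the 9, against 68.6% of all genes. Same-numbered lung and liver libraries of a treatment deviated in parallel from their group means, and with the number as a block Mki67 was called lower in lung (-0.64, adjusted p = 0.0196) and the other 8 were not called. A block fit on the 8 vehicle libraries alone was run before the planned 24-library block and kept as unplanned after its values were seen. It called 4, with Mki67 and Cdkn1a lower and Top2a and Ccnd1 higher in lung. This comparison turned on scaling: with library totals 8 of the 9 were called, all higher in lung, and the median over all genes moved to 1.42, against 0.18 with TMM. DESeq2 called 0 of the 9 and limma-voom 2.

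The response to desisobutyryl ciclesonide differed between lung and liver for 6 of the 9 genes, all lower in lung, against 3.39% of all 16477 genes, 1.71% as lower in lung. The lung change less the liver change was -2.79 ± 0.52 for Ccnb1 (adjusted p = 0.00411), -2.48 ± 0.47 for Ccna2 (adjusted p = 0.00506) and -2.26 ± 0.50 for Cdk1 (adjusted p = 0.0149). For Top2a it was -2.13 ± 0.55 (adjusted p = 0.0343) and for Mki67 -1.96 ± 0.51 (adjusted p = 0.0349), and each of these calls was lost in 12 of 16 fits that left out 1 library, and without the low-count filter (adjusted p = 0.0610 and 0.0634). Myc differed by -1.35 ± 0.31 (adjusted p = 0.0163), with a rise called in liver and none in lung. For Pcna, Ccnd1 and Cdkn1a the difference was not called, at -0.38 (95% interval -0.89 to 0.12), 0.04 (-1.15 to 1.22) and -0.58 (-1.75 to 0.60).

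The response to dexamethasone differed between the tissues for 2 of the 9 genes, against 28.7% of all genes, 13.8% as lower in lung and 14.9% as higher. The lung change less the liver change was -1.93 ± 0.58 for Top2a (adjusted p = 0.0154) and -1.40 ± 0.50 for Ccna2 (adjusted p = 0.0413). Both calls were lost without liver dexamethasone replicate 1, where the difference was -0.97 for Top2a (adjusted p = 0.0595) and -0.85 for Ccna2 (adjusted p = 0.166). Without that library the difference of Ccnd1, 0.75 with all libraries (adjusted p = 0.379), became 1.53 (adjusted p = 0.0270). The Ccna2 call was lost in 11 of 16 fits that left out 1 library, and with library totals, no filter or limma-voom (adjusted p = 0.0736, 0.0558 and 0.130). The difference was -0.95 for Cdk1 (95% interval -2.08 to 0.18), -1.08 for Ccnb1 (-2.21 to 0.06) and -0.65 for Mki67 (-1.72 to 0.42), none of them called. It was 0.18 for Pcna (-0.33 to 0.69), 0.32 for Cdkn1a (-0.85 to 1.49) and -0.75 for Myc (-1.38 to -0.12; adjusted p = 0.0696), and these were not called either. Single libraries changed this: Myc was called at -1.001 without lung dexamethasone replicate 2 (adjusted p = 0.00485) and at -0.88 without liver dexamethasone replicate 2 (adjusted p = 0.0342). Cdkn1a was called at 1.15 without that liver library (adjusted p = 0.0315). Over all 23 alternative fits the Myc difference ran from -1.001 to -0.39, and in 21 of them it was not called.

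**Figure D5:**
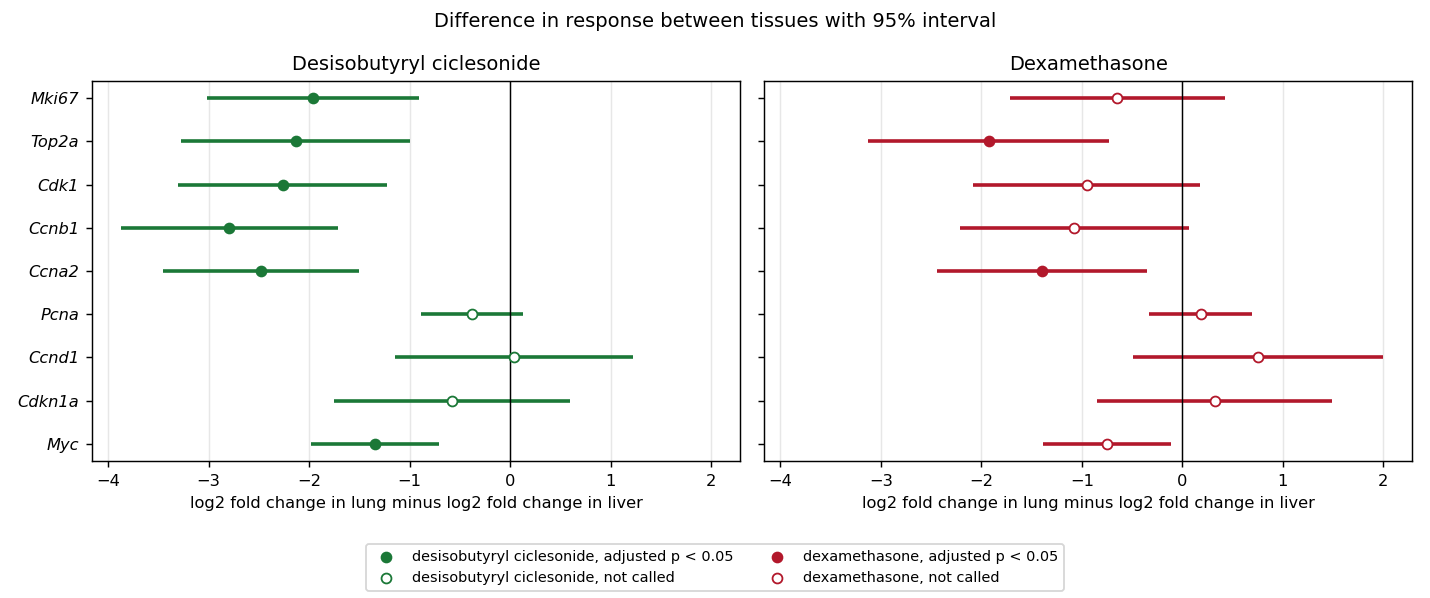
Log2 change in lung minus log2 change in liver for each of the 9 genes and each drug, with points for the estimate and lines for the 95% interval. For desisobutyryl ciclesonide the 5 S, G2 and M phase genes and Myc lie below 0 with filled points for called differences, and for dexamethasone Top2a and Ccna2 do.

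Across the 12 libraries of a tissue, the other members were set beside the mean standardised level of Mki67, Top2a, Cdk1, Ccnb1 and Ccna2. The libraries share their treatments, so these correlations mostly restate the group differences. In lung the Pearson r was 0.971 for Pcna, 0.852 for Ccnd1, -0.789 for Myc and -0.955 for Cdkn1a. In liver it was 0.944 for Pcna, 0.945 for Ccnd1, -0.62 for Myc and -0.28 for Cdkn1a. Spearman's rho was 0.951, 0.72, -0.70 and -0.97 for Pcna, Ccnd1, Myc and Cdkn1a in lung, and 0.727, 0.797, -0.52 and 0.12 in liver, so that of Cdkn1a in liver had the other sign. The genes outside the 9 most like the 5 in lung were ENSRNOG00000007906 (r = 0.998) and ENSRNOG00000043182 (r = 0.997), and in liver ENSRNOG00000015529 (r = 0.997) and ENSRNOG00000013057 (r = 0.996). ENSRNOG00000007906 averaged 11.2 CPM with desisobutyryl ciclesonide, 1.68 CPM with dexamethasone and 43.5 CPM with vehicle in lung. Most like Cdkn1a were ENSRNOG00000007390 (r = 0.990) and ENSRNOG00000058186 (r = 0.989) in lung, and ENSRNOG00000012163 (r = 0.936) and ENSRNOG00000001184 (r = 0.914) in liver.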

How the data were processed

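RNA-seq libraries from lung and liver of rat pups were assigned to groups from their titles. Deposited values are raw counts for each gene, as whole numbers, which the authors made with cutadapt, HISAT2 and HTSeq on build mRatBN7.2, per the submitters' processing notes. Versions, settings and use of strand are not given in the sources used here, which leaves the counts of genes that overlap, lie antisense or have near copies uncertain. Each file has 30560 genes and 5 summary rows, which took 16.8% to 31.8% of entries and stayed out of library sizes and tests.

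Differential expression was tested in R 4.3.3 with edgeR 4.0.16 (default expression filter, TMM scaling, robust quasi-likelihood F-test, Benjamini-Hochberg adjustment over all genes tested, called at 0.05). Each tissue was fitted on its 12 libraries, and tissue differences on all 24. CPM use TMM-scaled library sizes from the fit of each tissue, or from all 24 libraries where that is stated. CPM scaled within lung and within liver are not on the same scale. The correlations used log2(CPM + 0.5). The fit was tested on simulated data with the same spread for every gene and no outlying or paired libraries, so that test does not cover such libraries. Alternatives were DESeq2 1.42.0, limma-voom (limma 3.58.1), other scalings, no filter, blocks and left-out libraries. Libraries were left out singly, and lung dexamethasone replicates 3 and 4 were also left out together. Those replicates had 19223 and 19404 genes detected, against 18473 and 18390 in replicates 1 and 2. For dexamethasone against vehicle in lung, all 9 members were called in each of 16 alternative fits, including the fit without both.

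The members and lists were chosen with earlier results of these data known. All 9 members were set to be named in every comparison, and symbols come from the rule that lists them. Of the identifiers, 0 of 30560 matched the reference table of 47357 genes, so the other cell cycle genes, cell type markers and tissue identity were not analysed here.

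Within a treatment, same-numbered lung and liver libraries deviated in parallel in 12 of 12 pairs (r from 0.110 to 0.305 across 13245 genes), so the number was taken to pair libraries across tissues. The tissue differences reported still come from the fit without this pairing, except where a block is named. The labels do not name litters or say that replicates are separate pups, so the p-values measure only how these libraries vary, which may be technical. Replicates of a group differed by more than sampling noise in all 36 pairs (chi-square per degree of freedom at least 11.6). Standard errors were derived from the fit as the absolute log2 change divided by the square root of the F statistic. Intervals were built from these errors with the t distribution, and they include the spread between libraries.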

Additional observations from a re-analysis of the deposited data

Results flagged for a closer look

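Among 54 groups of 4 libraries, 1 for each gene, tissue and treatment, 5 had a library far from the other 3 by Dixon's test, which flags about 1 group in 20 by chance. In liver, dexamethasone replicate 1 was far above the rest for Top2a at 16.3 CPM (next 4.35), Cdk1 at 7.59 CPM (next 1.68) and Ccnb1 at 9.43 CPM (next 2.40). In lung, vehicle replicate 2 was low for Ccna2 at 87.5 CPM (next 101). In liver, desisobutyryl ciclesonide replicate 4 was high for Myc at 38.6 CPM (next 24.4).

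The change against vehicle differed between lung and liver in a test of the difference itself for 8 pairs of a gene and a drug. With desisobutyryl ciclesonide the lung change less the liver change was -1.96 for Mki67, -2.13 for Top2a, -2.26 for Cdk1, -2.79 for Ccnb1, -2.48 for Ccna2 and -1.35 for Myc. With dexamethasone it was -1.93 for Top2a and -1.40 for Ccna2.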

How the results depend on the processing

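The member counts within lung and liver were within 1.5 times of those reported under each alternative run, except that 3 members were called for desisobutyryl ciclesonide in liver with the 2 groups fitted alone. Over all genes that comparison gave 621 calls, 1191 with DESeq2 and 295 to 482 without 1 library. In lung desisobutyryl ciclesonide gave 2564 to 3366 without 1 library. Between tissues in vehicle pups, 8 members were called with library totals, 2 with limma-voom, 0 to 1 without 1 library, and 1 with the number as a block across tissues. A block fit of the 8 vehicle libraries alone, kept after its values were seen, called 4 (Mki67 -0.73, Top2a 0.54, Ccnd1 0.45 and Cdkn1a -0.46). For the dexamethasone response 1 member was called with library totals, with no filter and with limma-voom, and 1 to 4 without 1 library. For the desisobutyryl ciclesonide response DESeq2 called 1060 genes, and 368 to 562 were called without 1 library. The block kept 2 and 6 members for these responses. Within a tissue not every pair passed 0.1 (8 of 12 in lung, 6 best with their own number, and 1 of 12 in liver, 3 best), so the numbers were not taken to pair libraries there, and the replicate block called 9 members for dexamethasone in each tissue and 7 and 1 for desisobutyryl ciclesonide in lung and liver.

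Signs turned only for values that were not called as reported. For Myc with desisobutyryl ciclesonide in lung the change was 0.00494 with median-of-ratios scaling, 0.000485 with no filter, 0.00482 with DESeq2, 0.00195 with the 2 groups alone and -0.077 to 0.056 without 1 library, and Ccnd1 ranged from -0.13 to 0.26 there. In liver with desisobutyryl ciclesonide, Ccnd1 was -0.019 with library totals, -0.043 with limma-voom, -0.049 with the replicate block and -0.12 to 0.23 without 1 library. There Mki67 ranged from -0.11 to 0.22 and Pcna from -0.34 to 0.016, and Cdkn1a against dexamethasone from -0.74 to 0.43. Between tissues in vehicle pups Ccna2 was -0.0016 with median-of-ratios scaling, -0.0017 with DESeq2 and -0.17 to 0.21 without 1 library. With library totals Mki67 was 0.55, Ccnb1 1.10, Pcna 1.11 and Cdkn1a 0.85, and without 1 library Ccnb1 ranged from -0.33 to 0.0034 and Pcna from -0.29 to 0.072. In the dexamethasone response Cdk1 ranged from -1.23 to 0.071 and Pcna from -0.033 to 0.33, and Ccnd1 from -0.18 to 0.31 in the desisobutyryl ciclesonide response. The cause of these shifts was not tested. Library totals also moved the share of calls that were higher: 32.8% for desisobutyryl ciclesonide in lung (48.8% with TMM), 29.4% for dexamethasone in liver (47.5%) and 86.5% for lung against liver (56.1%). The lowest member levels rest on few counts per library, at least 19 for Cdk1 in liver with dexamethasone.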
